A study of Mus musculus with 12 samples.

Results

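Control Hepa 1-6 cells were described here from the 3 libraries that received the scrambled siRNA pool (siC), out of 12 libraries in 4 groups, chosen by that label alone. Hepa 1-6 is a mouse hepatoma line, labelled as wild type and with the cell type hepatocyte. Per the labels, 400000 cells were seeded on a 6 cm plate in medium with 10% serum, received 100 nM of a pool of scrambled small interfering RNAs with the Hiperfect reagent, received it again after 48 h (200 nM in total), and were collected at 96 h. The other 3 groups received pools against Esrra, Hcfc1 or both and are not compared here. No untransfected library was analysed here, so every value is that of cells after 2 rounds of transfection. The labels do not say whether the 3 libraries came from separate cultures, and the spread between them may therefore be partly technical.

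Hepatocytes secrete most plasma proteins, turn ammonia into urea, make glucose and bile acids, and oxidise and conjugate foreign compounds. This programme is driven by a small set of transcription factors that includes HNF4α, the FOXA proteins and C/EBPα. Fetal hepatocytes express alpha-fetoprotein and insulin-like growth factor 2, and liver tumours often keep or regain fetal genes while losing those of mature metabolism.

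The libraries held 22.4, 28.3 and 23.7 M counts in genes (libraries 1, 2 and 3), so that a gene with no count lies below 0.134, 0.106 and 0.126 CPM (counts scaled to library size), the level of 3 counts. Levels are given as TPM, the deposited abundance per gene length, scaled to the same total in each library. Of 54532 annotated genes, 20955 had a value above 0 in at least 1 library, and 12461 reached 1 TPM in all 3. The word present is used below for such genes. Of 22046 protein-coding genes, 10679 (48.4%) were present and 7696 (34.9%) were at 0 in all 3 libraries. These shares of protein-coding genes are the background against which each list of genes below can be read. The median level over all protein-coding genes was 1.17 TPM, and over the protein-coding genes present 24.9 TPM.

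The 4 defining hepatocyte markers were present but far apart in level. Alb, which encodes albumin (chr5:90460897-90476602, mm10), had 4389, 5973 and 3545 TPM in libraries 1, 2 and 3, a mean of 4636 ± 1233 (SD, n = 3), and ranked 16 among all genes. Afp, which encodes alpha-fetoprotein, its neighbour on the same chromosome (chr5:90490737-90508907), had 1097, 1599 and 992 TPM, a mean of 1229 ± 325 (n = 3), and ranked 86. Both genes were highest in library 2 and lowest in library 3, and the ratio of Alb to Afp was 4.00, 3.73 and 3.57 in the 3 libraries. On the log2 scale Afp thus stood at -1.91 ± 0.08 relative to Alb (SD, n = 3), a ratio that varied far less than either level. Hnf4a, the gene of the nuclear receptor that sustains hepatocyte identity (chr2:163506808-163572910), had 56.6, 46.2 and 74.8 TPM, with library 3 the highest. Apob, which encodes the structural protein of very low density lipoprotein (chr12:7977648-8016835), had 19.3, 15.1 and 11.9 TPM and ranked 7446. All 4 markers, of which Afp is a fetal one, were thus present. Of the 218 hepatocyte genes described below 88 (40.4%) were present, against 48.4% of all protein-coding genes.

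**Figure D1:**
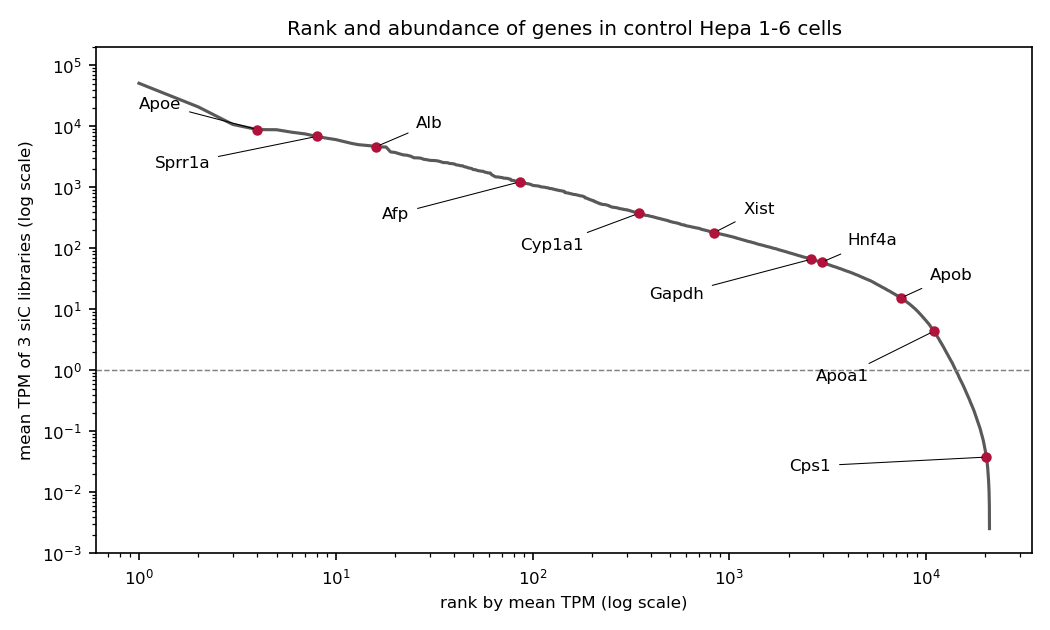
Mean TPM of the 3 siC libraries (y axis, log scale) against rank (x axis, log scale) for every gene above 0, with named genes as red points and 1 TPM as a dashed line. Apoe, Sprr1a, Alb and Afp lie among the 100 most abundant genes, while Gapdh ranks 2612 and Apoa1, at 4.38 TPM, lies far below Alb.

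The promoters of Alb and Afp, and of the 3 fibrinogen genes, are shown as neighbouring genes expressed by adult or fetal hepatocytes. Alb exceeded Afp 3.57- to 4.00-fold, whereas the fibrinogen genes had very unequal levels. Fga, Fgb and Fgg encode the 3 chains of fibrinogen and lie together on chromosome 3. Fgb had 45.7, 65.9 and 37.2 TPM, Fgg had 0.396, 0.305 and 0 TPM from 6, 6 and 0 counts, and Fga had no count in any library. Per gene length, Fgb was at least 1238-fold higher than Fga, taking 3 counts over the 3 libraries as the limit for Fga. The sequences are those of RefSeq (GRCm38.p6), from 250 bases before to 50 bases after the annotated start, written 5′ to 3′ along the gene. They lie at chr5:90460620-90460919 (Alb, plus strand), chr5:90490464-90490763 (Afp, plus strand), chr3:83025903-83026202 (Fga, plus strand), chr3:83049814-83050113 (Fgb, minus strand) and chr3:83007474-83007773 (Fgg, plus strand). Capitals mark a short motif known from hepatocyte promoters (GTTAAT, or ATTAAC on the other strand) and the TATA box (TATAAA, either strand).
Alb: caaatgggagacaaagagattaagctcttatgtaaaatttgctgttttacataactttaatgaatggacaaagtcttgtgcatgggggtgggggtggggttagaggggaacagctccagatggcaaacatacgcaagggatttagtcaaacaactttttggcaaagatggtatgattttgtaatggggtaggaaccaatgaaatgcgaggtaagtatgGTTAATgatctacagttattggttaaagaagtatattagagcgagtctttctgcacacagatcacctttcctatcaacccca
Afp: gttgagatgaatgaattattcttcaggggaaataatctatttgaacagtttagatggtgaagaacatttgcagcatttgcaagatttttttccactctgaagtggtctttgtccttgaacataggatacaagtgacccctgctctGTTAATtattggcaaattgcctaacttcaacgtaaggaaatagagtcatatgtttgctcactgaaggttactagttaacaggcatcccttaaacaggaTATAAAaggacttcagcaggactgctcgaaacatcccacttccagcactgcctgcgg
Fga: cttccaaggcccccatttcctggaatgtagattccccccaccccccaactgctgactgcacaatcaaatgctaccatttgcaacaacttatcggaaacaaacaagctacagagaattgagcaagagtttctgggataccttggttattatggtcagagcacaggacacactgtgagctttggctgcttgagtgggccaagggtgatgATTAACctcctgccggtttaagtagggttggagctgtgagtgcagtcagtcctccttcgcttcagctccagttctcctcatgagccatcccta
Fgb: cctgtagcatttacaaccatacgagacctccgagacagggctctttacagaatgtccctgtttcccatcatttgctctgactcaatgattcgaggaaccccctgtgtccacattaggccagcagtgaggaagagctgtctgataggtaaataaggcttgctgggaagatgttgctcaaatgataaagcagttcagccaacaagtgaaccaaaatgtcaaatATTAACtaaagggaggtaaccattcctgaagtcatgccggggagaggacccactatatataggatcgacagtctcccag
Fgg: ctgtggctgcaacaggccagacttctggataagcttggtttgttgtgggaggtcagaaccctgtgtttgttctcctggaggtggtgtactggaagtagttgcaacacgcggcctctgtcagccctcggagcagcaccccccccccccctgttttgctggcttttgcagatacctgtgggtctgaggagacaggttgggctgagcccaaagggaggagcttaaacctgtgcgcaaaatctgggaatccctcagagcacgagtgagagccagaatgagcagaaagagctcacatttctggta

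The GTTAAT core was found once each in the windows of Alb, Afp, Fga and Fgb. It lay at 32, 105, 43 and 29 bases before the RefSeq start, counted to its first base. For Alb and Afp the RefSeq start lies upstream of the gene start given above, so these distances hold for the RefSeq start only. In Alb and Afp it lay on the strand of the gene, and in Fga and Fgb on the other. Of 32851 promoter windows in the table, 7.10% hold this core on either strand. The TATA box letters occurred in the Afp window only among these 5, against 13.6% of all windows. A forkhead core (TGTTTNC on either strand, not in capitals), which 20.5% of windows hold, occurred in the windows of Alb, Afp, Fga and Fgb. None of these letters stood in the Fgg window, and the Fga window, of a gene with no count, held the same cores as the Fgb window. A match is a description of the letters and does not show binding.

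Of the summed TPM, 50% came from the 395 most abundant genes. The 10 most abundant held 14.1%, 17.7% and 8.75% of TPM in libraries 1, 2 and 3, and the 100 most abundant 33.17%, 36.32% and 29.98%. Library 3 was the lowest at both cutoffs. Genes encoded in mitochondria took 11.3%, 15.4% and 5.77% of TPM, while the 86 ribosomal protein genes took 9.90%, 9.26% and 12.5%. Without regard to gene length, the mitochondrially encoded genes took 4.56%, 6.54% and 2.37% of counts, with 95% Wilson intervals at most 0.0182 points wide that cover counting error only. The first 3 ranks belonged to mt-Co1, mt-Nd1 and mt-Nd2, subunits of the respiratory chain, at 50871, 20866 and 10746 TPM on average. Of the words of 31 bases in mt-Co1, 63.9% recur in other annotated genes, and how reads with several matches were counted is not given in the sources used here, so its level is uncertain. The same holds, with the share in parentheses, for every gene below with more than 20% such words or more than 20% of its exon bases under another gene.

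Apoe, which encodes the apolipoprotein of remnant particles, was the most abundant nuclear protein-coding gene. It had 8227, 12783 and 5565 TPM, a mean of 8858 ± 3650 (SD, n = 3), and so exceeded Alb 1.57- to 2.14-fold in every library. Next stood Eef1a1, which encodes a translation elongation factor (51.5% shared words), at 8004 TPM. Sprr1a followed with 6593, 5495 and 8418 TPM. Sprr1a encodes a precursor of the cornified envelope of stratified epithelia such as skin. Its 3 values exceeded those of Alb in libraries 1 and 3 and lay below Alb in library 2. Fth1 (ferritin heavy chain), Bsg (basigin, a partner of lactate transporters), B2m (the light chain of class I histocompatibility molecules) and Aldoa (aldolase A) had mean levels of 5014, 4807, 4600 and 4590 TPM. Ribosomal protein genes and pseudogenes, elongation factors and further mitochondrially encoded genes filled most of the other places among the 25 most abundant, among them Rplp0 (42.8% shared words) at 5268 TPM and mt-Nd4 (62.8%) at 6071 TPM.

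The 30 most abundant nuclear protein-coding genes, ribosomal proteins left out, mixed hepatic, housekeeping and non-hepatic genes. Tff2, which encodes a trefoil peptide of gastric mucus, had 2457, 3200 and 1935 TPM, above Afp in every library. Dcn, which encodes decorin, a matrix proteoglycan of fibroblasts, had 1760, 2158 and 1360 TPM. Fn1 (fibronectin) had 2755, 2639 and 2536 TPM, the narrowest relative spread of these 3. Igfbp1, the hepatic binding protein of insulin-like growth factors, had 1902, 2865 and 1345 TPM, and Spp1, which encodes osteopontin, 1958, 2270 and 1277 TPM. Krt18, a keratin of simple epithelia, averaged 2265 ± 551 TPM (SD, n = 3).

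Of 218 measured hepatocyte genes, 88 (40.4%) were present and 68 were at 0 in all 3 libraries. Of all protein-coding genes, 48.4% were present and 34.9% were at 0. By class of gene, transcription factors (21 of 29) and surface receptors (11 of 15) were mostly present. Plasma proteins (23 of 81), gluconeogenesis and amino acid breakdown (6 of 21) and bile acid synthesis and transport (3 of 19) were mostly not.

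Among the 29 hepatocyte transcription factors, Xbp1, a driver of secretory capacity, was the highest with 192, 231 and 194 TPM. Cebpb, Foxa2 and Tbx3 followed with mean levels of 195 (20.7% exon overlap), 122 and 90.7 TPM. Cebpa stood at 35.8 TPM. Foxa1 had 2.16, 2.56 and 4.10 TPM, well below Foxa2. Nr0b2, the bile acid-induced repressor SHP, and Nr1i2, the xenobiotic receptor PXR, had no count in any library, and Ppara, the fatty acid receptor, had 0.720, 0 and 0.171 TPM. Nr1h4, the bile acid receptor FXR, was present at 5.26 TPM.

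Plasma protein genes split by class. Of the 14 albumin-family and carrier genes 9 were present, of the 12 apolipoprotein genes 5, of the 14 complement genes 5, of the 20 coagulation genes 3, and of the 21 protease inhibitor and acute phase genes 1. After Apoe and Alb, the most abundant were Rbp4 (retinol-binding protein, 1179, 1680 and 1047 TPM) and Itih2 (a heavy chain of inter-alpha-trypsin inhibitor, 522, 653 and 396 TPM). C3, the central complement component, had 351, 344 and 218 TPM. Against these stood Apoa1, the main protein of high density lipoprotein, with 3.46, 6.72 and 2.97 TPM, so that Alb exceeded it 889- to 1268-fold. Apoa4 (64.5% shared words), Apoc3, Apom and C6 had no count. Ttr, which encodes the thyroxine carrier transthyretin, also had none, which allows at most 0.101 TPM over the 3 libraries. The 5 Serpina1 genes, which encode alpha-1-antitrypsin, had none either, but between 44.7% and 85.8% of their words recur in other genes, and the part of this in their level was not tested.

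Within the urea cycle, 2 enzymes were present at moderate levels and 3 were at or near 0. Ass1 (43.1% shared words) and Asl, the enzymes that make and cleave argininosuccinate, had mean levels of 51.9 ± 10.8 and 52.1 ± 3.12 TPM (SD, n = 3 each). Slc25a13, the mitochondrial aspartate carrier, had 35.9, 33.2 and 43.3 TPM, and Nags, which makes the activator of the first step, had 7.54 TPM. Cps1, the first enzyme, had 0, 1 and 4 counts, and Arg1, which releases urea, 0, 0 and 5 counts. Otc had no count, and per gene length Ass1 exceeded it at least 1749-fold.

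In gluconeogenesis Pck1, G6pc and Fbp1, the enzymes particular to the pathway in liver, had no count in any library. The mitochondrial form Pck2 was present with 39.5, 29.1 and 25.8 TPM, and Pcx, pyruvate carboxylase, with 14.3, 16.03 and 15.7 TPM. Of the amino acid enzymes, Glul (glutamine synthetase, 20.4% shared words) led with 226, 157 and 227 TPM and Fah, the last enzyme of tyrosine breakdown, had 39.2, 43.6 and 41.0 TPM. Tat, the first enzyme of that same route, averaged 0.183 TPM, and Hpd, the second, had no count. Agxt, a peroxisomal aminotransferase, also had none.

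The cytochrome P450 list (9 of 26 present) was led by Cyp1a1, the inducible target of the aryl hydrocarbon receptor, with 374, 465 and 285 TPM. Cyp1a2, its neighbour in the same family that is constitutive in adult liver, had only 1, 4 and 16 counts. Por, the reductase that supplies P450 enzymes with electrons, had 379, 457 and 283 TPM and followed the order of Cyp1a1 across libraries. Cyp51, of sterol synthesis, and Cyp3a13 averaged 114 and 110 TPM. Cyp2c70, Cyp2f2, Cyp3a11 and Cyp4a14 had no count, nor had Cyp2a5 (54.6% shared words). Cyp2e1 averaged 0.0493 TPM.

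Of the genes of bile acids, the export pumps Abcc2 (310, 339 and 261 TPM) and Abcc3 (112, 128 and 81.8 TPM) and the enzyme Cyp27a1 (32.5, 35.4 and 17.2 TPM) were the only 3 of 19 present. Cyp7a1, the rate-limiting enzyme, had no count, nor had Abcg5, Abcg8 or Akr1d1. The uptake carrier Slc10a1 had counts in library 3 only, at 0.478 TPM. Conjugation enzymes were present in 10 of 19 cases. Gstp1, a glutathione transferase used as a liver tumour marker in rats (38.5% shared words), had 1331, 1113 and 1463 TPM, Ephx1, microsomal epoxide hydrolase, 750, 982 and 569 TPM, and Ugt2b34, a glucuronosyltransferase, 327, 366 and 288 TPM. Gstm1 (28.8% shared words) averaged 405 TPM, while Nat8, Sult2a8 and Ugt2a3 had no count.

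**Figure D2:**
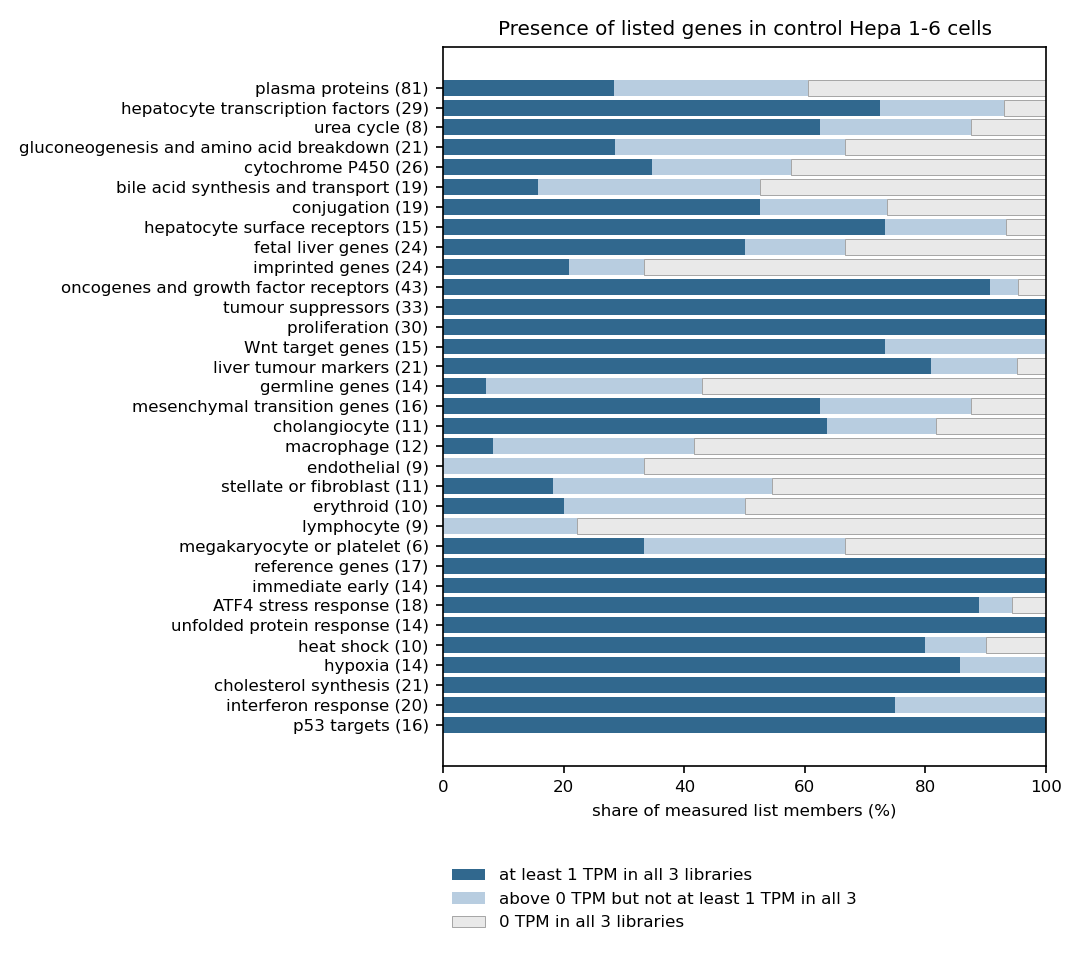
Share of the measured members of each list (x axis, %; number measured in parentheses) that were at least 1 TPM in all 3 siC libraries (dark), above 0 but short of that (pale) or 0 in all 3 (grey). Tumour suppressor, proliferation and p53 target genes were all present, while 3 of 19 bile acid genes and 0 of 9 endothelial genes were.

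Fetal liver genes were present in 12 of 24 cases, near the 48.4% of all protein-coding genes, and Afp and Igf2 stood far apart. Afp was high, whereas Igf2 and H19, the imprinted neighbours that are abundant in fetal liver, had no count in any library. For H19 this allows at most 0.0503 TPM, and for Igf2, with 63.1% shared words, the limit covers the reads as counted only. Dlk1, a fetal hepatoblast surface protein, had no count and Gpc3, the glypican used as a marker of human liver cancer, had 0.410, 0.317 and 0.488 TPM. The 3 genes for RNA-binding proteins named after Igf2 messenger RNA were nonetheless present, with mean levels of 41.6 ± 8.08 (Igf2bp1), 38.0 ± 5.96 (Igf2bp2) and 15.5 ± 3.45 TPM (Igf2bp3; SD, n = 3 each). Lin28a and Sall4 had no count. Hmga1, a chromatin protein of growing cells (62.1% shared words), had 591, 468 and 749 TPM.

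The absence of H19, Igf2 and Dlk1 was shared by most of the 24 imprinted genes listed, of which 16 had no count in any library and 5 were present. Of all protein-coding genes 34.9% were at 0 and 48.4% present, and of all annotated genes 61.6% and 22.9%. The list also holds noncoding genes such as H19 and Meg3, so the protein-coding shares are not a full background for it. Cdkn1c (27.2% shared words), Grb10, Meg3 and Peg3 were among those with none. Those present were Impact (41.8, 43.8 and 34.96 TPM), Gnas (14.6, 8.10 and 14.5 TPM; 21.97% exon overlap), Airn, Igf2r and Nnat. Airn runs antisense through Igf2r, and the kit does not mark strand, so that reads where they overlap cannot be told apart.

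Of 171 tumour-related genes, 140 (81.9%) were present, against 48.4% of all protein-coding genes. A high share was not particular to these lists. The lists of cell state described below had 115 of 126 genes present (91.3%), and all 17 reference genes were present. Within the tumour lists the germline genes went the other way, with 1 of 14 present. All 30 proliferation genes were present with a median of 70.5 TPM, led by Ube2c, of mitotic protein degradation (25.3% shared words), at 325, 234 and 365 TPM. Top2a averaged 218 ± 37.0 and Mki67 135 ± 33.5 TPM (SD, n = 3 each). Among growth genes (39 of 43 present) Vegfa had 379, 425 and 370 TPM, Ccnd1, cyclin D1 (22.3% shared words, 23.4% exon overlap), 410, 268 and 354 TPM, and Myc 211, 187 and 261 TPM. Ccnd2, the related cyclin, had no count, and Igf1r, the receptor of insulin-like growth factors, had 0, 4 and 10 counts beside an Insr level of 21.4 TPM.

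All 33 listed tumour suppressors were present. Trp53 had 88.6, 80.2 and 79.8 TPM, Cdkn2a 114, 67.7 and 107 TPM, and Cdkn2b, its neighbour, 184, 155 and 210 TPM. Mtap, which lies beside them and is often lost with them in human tumours, had 193, 158 and 251 TPM. The lowest was Fhit at 2.37 ± 1.04 TPM (SD, n = 3). The 16 listed p53 target genes were all present with a median of 161 TPM. Ccng1 led them with 566, 390 and 680 TPM, followed by Phlda3 (476 TPM), Perp (345 TPM) and Cdkn1a (262, 203 and 425 TPM). Of these 4, 3 were highest in library 3, as were 11 of all 16, against 38.9% of all genes that passed the filter described below, with a median departure of 0.18 on the log2 scale.

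Of 15 Wnt target genes 11 were present. Sp5 (199, 155 and 217 TPM), Nkd1 (198, 150 and 148 TPM) and Axin2 (145, 110 and 146 TPM) are feedback targets of the pathway in many tissues, and Glul and Oat are targets in the hepatocytes around the central vein. Oat averaged 265 TPM, whereas Cyp2e1 and Slc1a2, other central vein genes, averaged 0.0493 and 0.180 TPM. Liver tumour markers (17 of 21 present) were led by S100a11 (48.9% shared words), Lgals1, Spp1 and Gstp1, at 3013, 1838, 1835 and 1302 TPM. Of 14 germline genes, Brdt, a testis bromodomain protein, was the single one present, with 3.32, 2.62 and 2.59 TPM, and 8 had no count.

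Epithelial and mesenchymal genes were mixed. Fn1, Vim (989, 796 and 963 TPM) and Snai1 (67.9, 56.5 and 120.5 TPM) were present, and so were the epithelial genes Krt18, Krt8 (36.05% shared words), Epcam (83.1 TPM) and Itgb4 (72.9 TPM). Cdh1, E-cadherin, had only 0.241, 0.931 and 0.172 TPM, and Cdh2, N-cadherin, had 9.53, 9.23 and 7.55 TPM. Snai2 and Twist1 had no count.

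Markers of other cell types were present in 14 of 68 cases, and 34 had no count, against 48.4% and 34.9% of all protein-coding genes. None of 9 endothelial and none of 9 lymphocyte markers was present, with summed levels of 0.349 to 0.656 TPM and 0 to 0.758 TPM. Of 12 macrophage markers only Cd68, a lysosomal protein, was present (166, 225 and 218 TPM), while Adgre1, C1qa, Clec4f and Marco had no count. Of 11 stellate cell or fibroblast markers, Dcn and Des (9.52, 7.12 and 12.1 TPM) were present. Acta2, Col3a1, Lrat and Lum had none, and Dcn exceeded Col1a1, a main collagen of fibroblasts, 1415- to 1992-fold. Cholangiocyte markers were present in 7 of 11 cases, among them Spp1, Sox9 (102, 82.7 and 117 TPM) and Cldn4 (78.9, 104 and 103 TPM), while Cftr had no count. Of 6 megakaryocyte or platelet markers, Ppbp, the platelet basic protein, had 143, 215 and 120 TPM, whereas Gp9 and Treml1 had no count and Pf4 averaged 0.875 TPM. Of 10 erythroid markers, Hbb-y, an embryonic globin, had 9.16, 12.8 and 10.6 TPM and Epor averaged 7.87 TPM.

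In 14 pairs, a gene listed as the adult liver form was set against another isozyme or family member. The other member was the higher in all 3 libraries in 10 of them. A further pair of comparisons, Glul with Asns and Sds with Phgdh, set different enzymes side by side. Pkm (34.7% shared words) exceeded Pklr, the liver pyruvate kinase (21.1% shared words), 94.3-fold, and Pygb exceeded Pygl, the liver glycogen phosphorylase, 548-fold. The glucose transporter of liver, Slc2a2, had no count beside 304, 405 and 298 TPM of Slc2a1, which was at least 15874-fold higher per length. Mat1a, Gys2, G6pc and Fabp1 likewise had no count, and their counterparts were at least 3259-fold (Mat2a), 1608-fold (Gys1), 1572-fold (G6pc3) and 78.6-fold (Fabp5) higher. The difference was small for Acsl4 over Acsl1, at 1.82-fold.

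The exceptions were few. Pfkl, the liver phosphofructokinase, exceeded Pfkp 2.79-fold, and Alb exceeded Afp 3.77-fold. Glul and Asns did not keep 1 order across the libraries, whereas Phgdh, of serine synthesis (56.3% shared words), had 868, 574 and 919 TPM beside 0, 0.880 and 0 TPM of Sds, which breaks serine down. Igf1 had 0.0279, 0.473 and 0 TPM and Igf2 none, and neither branched-chain transaminase, Bcat1 nor Bcat2, passed 0.101 TPM in any library. Bcat2 was listed as the adult form of its pair, a label not drawn from these data. Its near absence is therefore not read as a departure from adult liver.

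**Figure D3:**
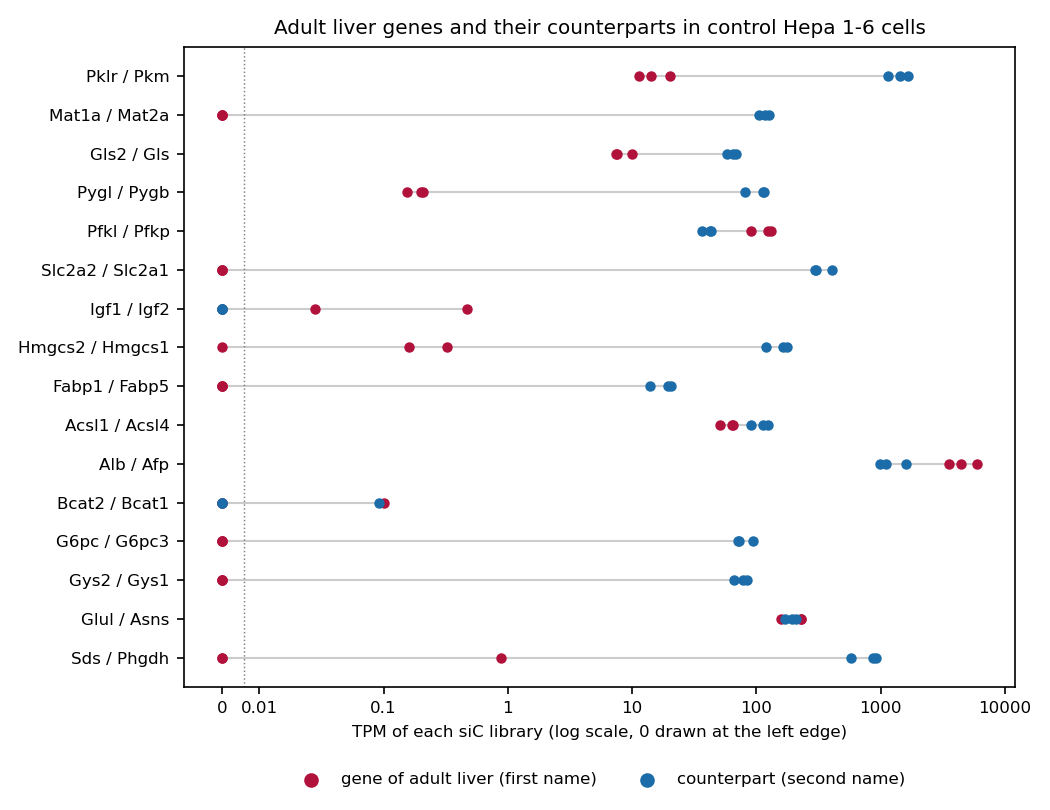
TPM in each siC library (x axis, log scale, 0 drawn at the left edge) for 14 pairs of isozymes or family members. A further 2 pairs (Glul / Asns and Sds / Phgdh) are of different enzymes. Red points (first name) are the gene listed as the adult liver form, and blue points (second name) its counterpart. The blue points lie right of the red ones in 10 of the 14, and Pfkl and Alb exceed their partners.

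The glycolytic enzymes, a list added after the values were seen, were all 14 present, over a wide range of levels. Aldoa had 4614, 3538 and 5619 TPM, with library 2 the lowest. Pgk1 (54.7% shared words) averaged 2758 ± 660, Ldha 1787 ± 342, Tpi1 1368 ± 318 and Pgam1 (37.1% shared words) 1278 ± 313 TPM (SD, n = 3 each). Gapdh, the enzyme between Tpi1 and Pgk1 and a common reference gene, had 48.7, 85.4 and 65.5 TPM. Tpi1 exceeded it 11.8- to 30.4-fold and Aldoa 41.4- to 94.8-fold. Other low members of the list were the hexokinases and phosphofructokinases, with mean levels of 40.8 (Pfkp), 80.8 (Hk2), 102 (Pfkm), 115 (Pfkl) and 117 TPM (Hk1). Of the words of Gapdh, taken over all its annotated transcripts, 28.1% recur in other genes. Its TPM divides by a deposited gene length of 4133 bases. The part of either in its level was not tested. Library 2 was the highest for Gapdh and the lowest for the 13 other enzymes of the list, both in the scaled counts compared between libraries below. Of all genes compared there, 42.4% were lowest in library 2.

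The remaining state lists were largely present. All 14 immediate early genes, all 14 genes of the unfolded protein response and all 21 of cholesterol synthesis and uptake were. Of the last, Sqle, an enzyme of sterol synthesis, had 329, 379 and 296 TPM. Fdps, an enzyme in the middle of that pathway, had 5.97, 4.55 and 4.02 TPM (27.9% shared words). Of 18 ATF4 target genes 16 were present, led by Phgdh (787 TPM, 56.3% shared words) and Ddit4 (525 TPM), while Stc2 had no count. Hypoxia genes were present in 12 of 14 cases, led by Bnip3 (57.03% shared words) and P4ha1 at 636 and 468 TPM. Heat shock genes were present in 8 of 10 cases, and Hspa1a, with 70.1% shared words, had no count. Xist, the RNA of the inactive X chromosome, had 175, 258 and 112 TPM, and Ddx3y, Eif2s3y, Kdm5d and Uty, all of the Y chromosome, had no count.

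The 3 libraries were compared after TMM scaling, over 11835 genes with at least 1 CPM in each. The median SD of log2 CPM between libraries was 0.23, and the common biological coefficient of variation was 0.220. Of the genes, 67.2% stayed within 1.5-fold over the 3 libraries, and 945 (7.98%) ranged over more than 2-fold. The spread depended on level, with 17.4% of genes between 1 and 10 TPM ranging over 2-fold against 3.51% of those between 100 and 1000 TPM. Above 1000 TPM the share was 11.2%, or 13 of 116 genes. Among these 13 were the mitochondrially encoded mt-Co1, mt-Nd1, mt-Nd2, mt-Cytb, mt-Nd4, mt-Nd5 and mt-Nd6, along with nuclear genes such as Apoe and Igfbp1. Libraries 1 and 3 were the closest pair, with 215 genes over 2-fold apart, against 370 for libraries 1 and 2 and 676 for libraries 2 and 3. Pearson's r of log2 CPM over these genes was 0.983, 0.977 and 0.964 for the same pairs, as a description across genes that share their libraries. Library 2 was the farthest from the other 2 in 48.2% of genes, library 3 in 33.8% and library 1 in 18.1%. Without library 2, 227 genes ranged over 2-fold and the median SD was 0.15, and without library 3, 399 genes did, a range over 2 values being narrower by construction.

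Among genes with a mean of at least 20 TPM and a name that is not a predicted one, the largest single departures were immediate early genes in library 3. Fos had 9.68, 5.84 and 183 TPM, Fosb 5.68, 6.05 and 148 TPM, and Egr1 54.0, 61.0 and 691 TPM, where Fos and Fosb encode subunits of AP-1 and Egr1 a zinc finger factor of the serum response. In scaled CPM, library 3 exceeded the mean of the other 2 on the log2 scale 21.6-fold for Fos, 23.3-fold for Fosb and 11.5-fold for Egr1. Jun had 17.96, 12.7 and 127 TPM and Atf3 11.98, 12.95 and 85.4 TPM. Of the 14 listed immediate early genes 13 were highest in library 3, against 38.9% of all 11835 genes. Ier3 was the exception, highest in library 2 at 532 TPM. The median departure of library 3 from the gene mean was 1.10 on the log2 scale for this list. Cyr61 (228, 286 and 980 TPM), a matricellular gene of the early response, and Ppp1r15a (45.7, 37.9 and 167 TPM), a phosphatase subunit of the stress response, were also among the 10 widest ranges of these genes. So were Sumo2, which encodes a small ubiquitin-like modifier (22.5% shared words), with 48.7, 17.4 and 102 TPM, and mt-Atp6, a subunit of ATP synthase (99.5% shared words), with 517, 1198 and 294 TPM.

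**Figure D4:**
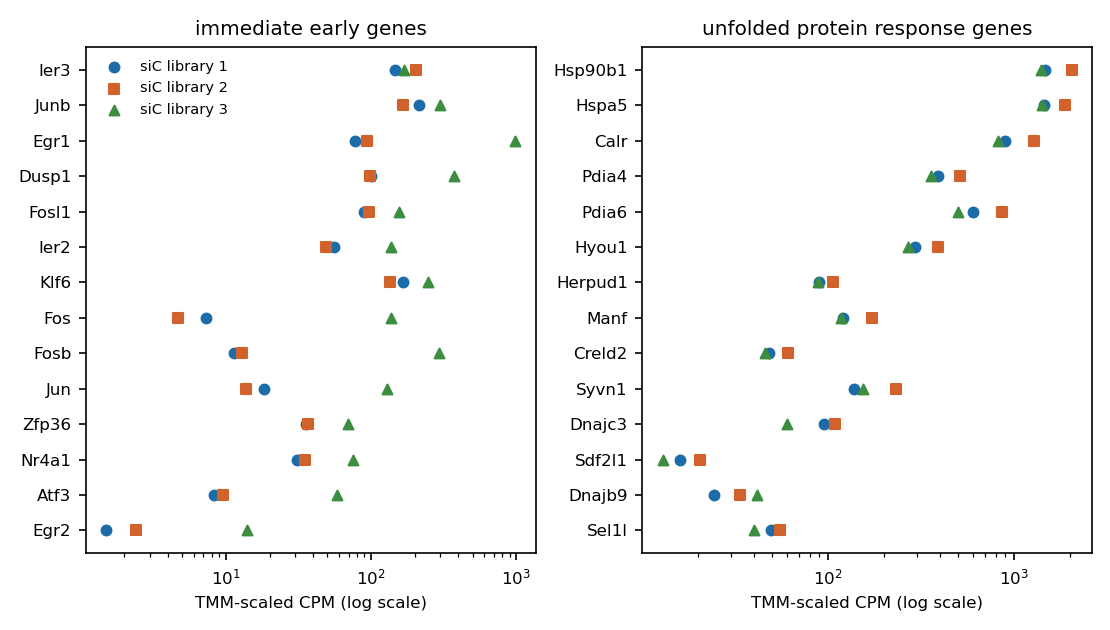
TMM-scaled CPM (x axis, log scale) of each immediate early gene (left) and each unfolded protein response gene (right) in the 3 siC libraries. Library 3 (triangles) is highest for 13 of 14 early genes, and library 2 (squares) for 13 of 14 unfolded protein response genes.

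Genes of the unfolded protein response and of plasma proteins were mostly highest in library 2. Of 14 unfolded protein response genes 13 were highest in library 2, against 38.1% of all genes. Lowest in library 3 were 12 of them, against 34.4% of all genes. Hspa5, the main chaperone of the endoplasmic reticulum, had 1081, 1309 and 1063 TPM, Calr 971, 1310 and 899 TPM, and Pdia6, a disulfide isomerase, 506, 674 and 421 TPM. These differences were small beside those of the early genes, with library 2 above the other 2 by 1.31-fold for Hspa5 and 1.57-fold for Pdia6. Dnajb9 alone was highest in library 3. Plasma protein genes kept the same order. Of 23 that passed the filter 17 were highest in library 2 and 21 lowest in library 3. The shares of all genes were 38.1% and 34.4%. The median departures of the plasma protein genes were 0.39 and -0.41. Cxcl15, a secreted chemokine, had 54.3, 117 and 18.1 TPM, and C1s2, a complement protease (40.4% shared words), 200, 247 and 78.4 TPM. Among the largest upward departures of library 2 at 20 TPM or more were also 3 genes of other kinds. Abcb9, a peptide transporter of lysosomes, had 22.9, 53.3 and 18.9 TPM, Wfdc2, a secreted epithelial protein, 19.9, 37.8 and 11.3 TPM, and Luc7l3, a splicing factor, 64.9, 118 and 39.1 TPM. In library 1 the upward departures were smaller and included Psph, an enzyme of serine synthesis, with 31.7, 17.4 and 16.1 TPM.

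Mitochondrially encoded genes followed that order more strongly. All 12 that passed the filter were lowest in library 3, against 34.4% of all genes, and ranged over more than 2-fold. Of these 12, 10 were highest in library 2, against 38.1% of all genes. The median departures were 0.70 in library 2 and -0.88 in library 3. The mt-Cytb gene, of complex III, had 9131, 10117 and 3284 TPM. Ribosomal protein genes ran the other way, with 76 of 81 highest in library 3, against 38.9% of all genes, by a median of 0.21. Hepatocyte transcription factors were lowest in library 2 in 13 of 21 cases, against 42.4% of all genes, with a median departure of -0.16. The mitochondrial share is summed over the mitochondrially encoded genes themselves, so its order follows from theirs. It ran in the same order as the plasma protein genes (library 2, then 1, then 3), while total counts ran 2, 3, 1. The part of either in the orders of the other lists was not tested. Scaling by total count alone, or by TPM without mitochondrially encoded genes (both added after the values were seen), kept the sign of library 2 and library 3 in these lists.

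**Figure D5:**
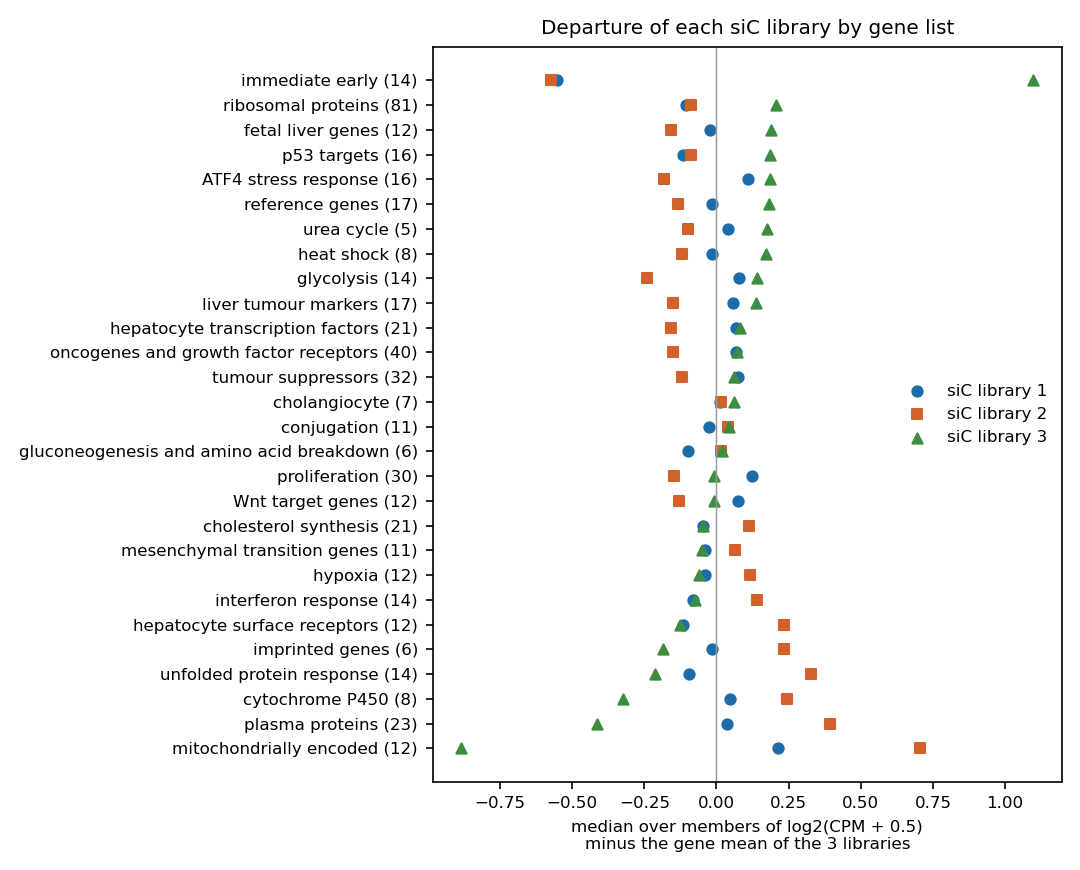
Median departure of each siC library from the gene mean (x axis, log2 scale) for lists with at least 5 members past the filter (number in parentheses). Library 3 lies at 1.10 for immediate early genes and at -0.88 for mitochondrially encoded genes, and library 2 at 0.70 for the latter.

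At the other end, a few genes hardly differed. Among genes of at least 100 TPM, the 5 narrowest ranges were those of Tmem14c, Nudt22, Pex5, Pfkm and Vil1, none above 0.04 on the log2 scale. Vil1, which encodes the microvillar protein villin, had 208, 193 and 204 TPM, and Pfkm, a phosphofructokinase, 105, 96.1 and 105 TPM. Of common reference genes, Actb (23.6% shared words) had 2199.6, 1640.0 and 2437 TPM and Hprt averaged 177 TPM.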

How the data were processed

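The 12 libraries were made by the authors from total RNA (RNeasy, on-column DNase) with a NEBNext Ultra kit, per the labels' protocols. The labels do not give the selection of messenger RNA. The submitters' processing notes name HISAT2 2.0.5, featureCounts 1.5.0-p3, DESeq2 1.20.0 and mm10. The deposited comparison tables hold whole-number counts per gene, and a further deposited table holds TPM, scaled by the authors to gene length and library size. The siC count columns of 3 tables were merged (24301 genes, 0 disagreements), and 90 other per-library columns were not used. The third siC TPM column carries the number 4. It equals library 3's counts per length to within 0.002285%, whereas no other pairing of columns came closer than 355% at its worst gene, so it is taken as library 3. Genes in no count table had at most 1 count.

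TMM factors and dispersion came from edgeR 4.0.16 (R 4.3.3), with log2(CPM + 0.5) and at least 1 CPM in all 3 libraries. The dispersion step was tested on simulated data. No test between groups was run. The 3 libraries differed beyond sampling noise (chi-square per degree of freedom at least 40.3). Symbols with several IDs were taken at the most abundant ID. Shared words and exon overlap come from GENCODE vM21 on the same build, where 679 of 706 listed genes have the deposited start and end. Members and lists were chosen with earlier results of these data known. Named genes were drawn from the 4 markers, the 25 most abundant genes, the 4 highest and up to 4 absent members of each list, the isozyme and other pairs, the 10 widest and 5 narrowest ranges and each library's 5 largest departures in each direction. Widest ranges and departures were taken among genes of at least 20 TPM, narrowest among those of at least 100 TPM, both without predicted names. The 30 nuclear protein-coding genes, the glycolysis list and other named genes were chosen after their values were seen. Some listed genes and pairs are not reported here. Alternatives were the detection level, scaling, filter, pseudocount and leaving out each library.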

Additional observations from a re-analysis of the deposited data

How the results depend on the processing

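Of 77 recomputed summary values, 66 stayed close to the reported value, which means within the replicate SD for shares of TPM and the Alb and Afp ratio and within 1.5 times for the others. All 60 recomputed levels of 12 single genes stayed within their SD. Most of these could not have done otherwise. Leaving out 1 of 3 libraries cannot move a mean beyond the SD, and the recomputed TPM nearly equals the deposited one. Only the rescaling without mitochondrially encoded genes could have moved them. The same limit holds for the Alb and Afp ratio, and closely for the shares of TPM, with 1 library left out. The 10 most abundant genes held 7.24% of TPM without mitochondrially encoded genes and 7.74% of counts, against 13.5% of TPM, and the 100 most abundant 26.4% and 20.2%, against 33.2%. Genes ranging over 2-fold numbered 240 with a filter at 10 CPM, 3104 with none and 478 with a pseudocount of 2, against 945, and from 227 to 699 with 1 library left out. The median SD of log2 CPM was 0.15 to 0.25 with 1 library left out, against 0.23. The common biological coefficient of variation was 0.397 with no filter, against 0.220. The first shift follows from the genes removed or from dropping gene length, and the filter and pseudocount act on low genes. With 1 library left out, a range is over 2 values and so narrower by construction. The cause of the others, such as the median SD without library 2, was not tested. Presence counts kept within 1.5 times at 0.5 and 5 TPM: 13381 and 9810 genes, and 96 and 72 hepatocyte genes against 88. No paired analysis was possible because no comparison between groups was made. Depth limits genes at 0 to 0.0403 CPM over the 3 libraries, and TPM depends on the annotated gene length and on how reads with several matches were counted.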

Other observations

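The class I histocompatibility genes were unequal. H2-D1 had 910, 1180 and 774 TPM (26.9% shared words) and B2m averaged 4600 TPM, whereas H2-K1 had 0, 0 and 2 counts (22.8% shared words). Of 20 listed interferon response genes 15 were present with a list median of 4.80 TPM. Bst2, a membrane protein that tethers viruses, had 298, 396 and 254 TPM and Usp18, an ISG15 protease, 56.0, 52.4 and 69.5 TPM, while Ifit1 averaged 0.236 TPM.

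Processed pseudogenes took 5.15%, 4.40% and 6.21% of TPM, and 800 of 9497 of them were present. These values hold for the reads as counted only. Of the words of Gm15772 and Rpl34-ps1, processed pseudogenes ranked 9 and 22 among all genes, 96.6% and 100% recur in other genes. Genes annotated as miRNA took 1.39%, 1.37% and 0.697%, led by Gm23935 with 11558, 9788 and 5077 TPM. It is 57 bases long and ranked 5 from 4773, 5240 and 2205 counts. All of its words of 31 bases recur in other genes, and TPM divides its counts by that short length.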
